A study of Saccharomyces cerevisiae with 73 samples.

Results

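The genes described here are 10 yeast genes for protein folding in the endoplasmic reticulum (ER): KAR2, LHS1, SCJ1, JEM1, PDI1, EUG1, ERO1, FPR2, DER1 and HAC1. They were taken by gene symbol from the probes of the array, where each has 1 probe, and make up 10 of the 5538 genes with a probe. The samples were cultures of Saccharomyces cerevisiae strain KCN118 (S288C background, MATalpha, ade2), grown at 28 °C in synthetic complete medium with 2% dextrose, all amino acids and 75 µM inositol, then filtered, washed and moved to 1 of 13 media. RNA taken 15, 30, 60, 120 and 240 min after the move (Cy5) was hybridised with RNA from before it (Cy3, t = 0) on 73 two-colour arrays, which cover 65 combinations of medium and time with 8 repeat arrays. Of the 8 repeats, 2 are marked ojgrid in the titles and correlated at 0.99994 and 0.99985 with their partners over all genes. The other 6 correlated at 0.71 to 0.99, so the 2 may not be separate hybridisations. Each medium was 1 culture, so a medium has no biological replicate of its own.

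The ethanol media were SEtOH, SEtOH+ino, SEtOH+aa and SEtOH+aa+ino, and the galactose media were Sgal, Sgal+ino, Sgal+aa and Sgal+aa+ino. The dextrose media were SD, SD+ino, SD+aa, SD+aa:LIVWHM+ino and SD+aa:ARNCQGKPSDEFTY+ino. In these names aa stands for all amino acids, letters after a colon for the amino acids supplied, and ino for inositol, and a name without one of these marks a medium without it. All cultures share the strain, its ade2 mutation and the inositol-rich starting medium. SD+aa differed from the starting medium only in its lack of inositol. Media and times are given as the array titles have them. The series' medium key differs for both partial media: by it SD+aa:LIVWHM+ino also held aspartate, glutamate and tyrosine, and SD+aa:ARNCQGKPSDEFTY+ino is listed without inositol. In SEtOH+aa the titles give repeat arrays at 60 and 120 min, and the design text gives them at 60 and 240 min, so 1 array averaged into its 120 min values may belong to 240 min.

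Proteins that enter the ER are folded there by chaperones, joined by disulfide bonds and, where folding fails, sent back out to be degraded. When unfolded proteins build up, the sensor Ire1 starts the splicing of HAC1 mRNA, and the Hac1 protein made from it raises transcription of folding genes, a circuit called the unfolded protein response. In yeast, lack of inositol is a known trigger of Ire1, and ire1 or hac1 mutants cannot grow without inositol, because INO1, the inositol synthase gene, is not expressed well in them. The arrays measured transcript abundance, and the deposited values do not tell spliced from unspliced HAC1 mRNA.

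All values below are log2 ratios of shifted cells to t = 0, or differences between such ratios. The deposited numbers were read as log10 ratios and multiplied by 3.32. Their base, direction and normalization are not stated with the table. If the base was 2, each log2 value here would be 3.32 times too large, and if the direction was the other way round, each sign would turn. No dyes were swapped, so a dye effect of a gene stays in its values against t = 0 and cancels between media. A ratio is relative to the whole mRNA of a culture, so a change of 1 transcript cannot be told apart from the opposite change of the rest. Between repeat arrays of the same RNA, without the 2 marked ojgrid, the members' values had an SD of 0.12 per array. The largest gap was 0.38 (58 pairs of values). The middle 50% of the genes on an array spanned between 0.25 and 1.97 log2 units, least in SD+aa and most in the galactose media with amino acids at 240 min.

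The members did not move as 1 group. KAR2, the ER Hsp70 chaperone also known as BiP, was above t = 0 in 20 of 20 ethanol values and 20 of 20 galactose values, with medians of 2.23 and 1.87, and in 9 of 25 dextrose values, with a median of -0.19. Its highest value, 3.78 or 13.8-fold, was in SEtOH+aa+ino at 240 min. PDI1, the main protein disulfide isomerase, and DER1, a membrane protein that moves misfolded proteins out of the ER for degradation, were above 0 in all 20 ethanol values too. SCJ1 and JEM1, DnaJ-type partners of Kar2, were below t = 0 in 58 and 55 of their 65 values. EUG1, a non-essential relative of PDI1, was below 0 in 52 of 65. The lowest member value was that of EUG1, -2.72 or 0.151 of t = 0, in Sgal+aa+ino at 240 min. Across the 65 values, which share cultures and the t = 0 channel, Pearson's r between members ran from 0.81 (KAR2 and ERO1) to -0.44 (HAC1 and EUG1).

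**Figure D1:**
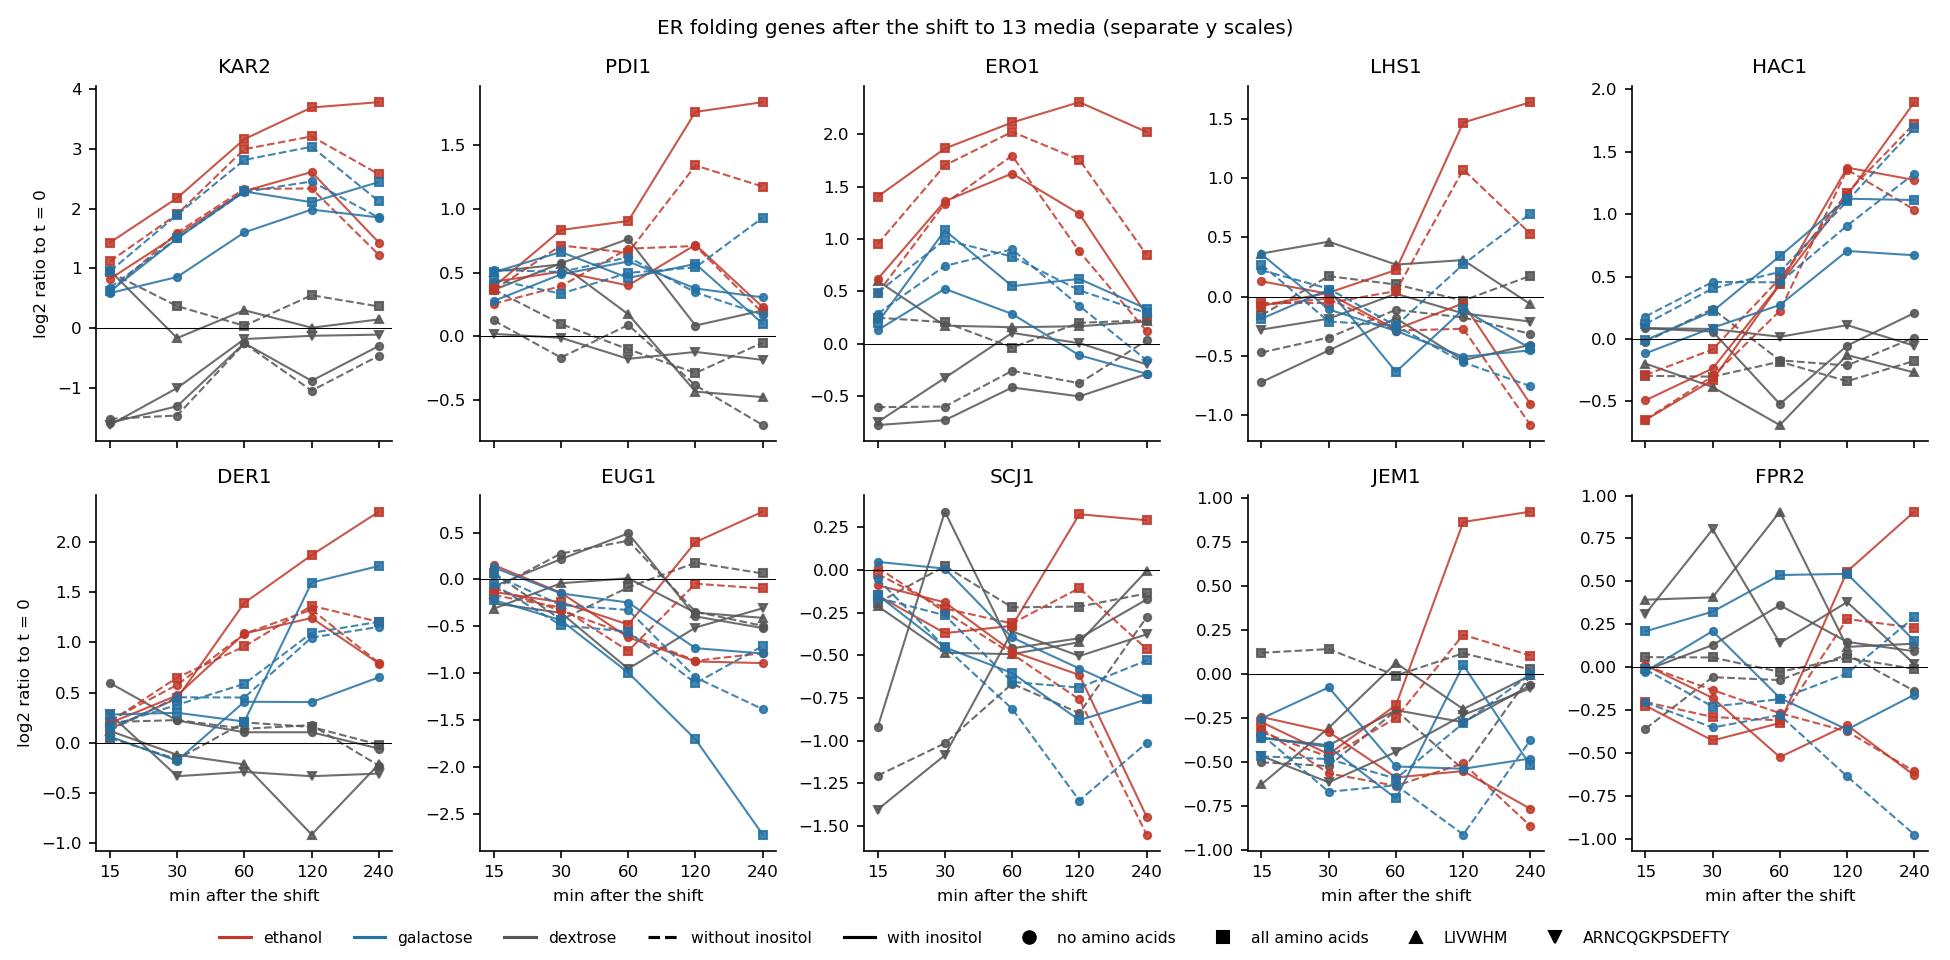
Log2 ratio to t = 0 (vertical axis, with its own scale in each panel) of the 10 genes against time after the shift (15 to 240 min, spaced evenly), 1 line per culture, with repeat arrays averaged. Colour gives the carbon source, dashed lines media without inositol, and symbols the amino acids. KAR2 lies between 0.58 and 3.78 in all ethanol and galactose cultures and between -1.63 and 0.96 in dextrose.

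The question named for these genes was whether media without inositol differed from media with it. They did not differ in a way that the test could call. Over 5 pairs of media that differ only in inositol (SD, SEtOH, SEtOH+aa, Sgal and Sgal+aa, each set against its partner with inositol), 0 of 10 members passed an adjusted p of 0.05 in limma's moderated test of culture means, against 0% of 5164 genes tested (360 genes, 1 of them a member, had an unadjusted p under 0.05). With a trend and robust variance the counts were also 0. The members' median difference, without minus with inositol, was -0.02, beside 0.01 over all genes.

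KAR2 averaged -0.95, 1.62, 2.36, 1.75 and 2.16 over time without inositol in SD, SEtOH, SEtOH+aa, Sgal and Sgal+aa, against -0.87, 1.74, 2.85, 1.37 and 1.79 in the partners with inositol. It was higher without inositol in both galactose pairs and lower in the other 3. The fitted difference was 0.01 (95% interval -0.27 to 0.29, adjusted p = 0.98), so a shared difference above 0.29 lies outside the interval. The interval for the other members was of like width. HAC1 had 0.09 (-0.12 to 0.30), ERO1, the oxidase that hands oxidising power to Pdi1, had -0.00 (-0.26 to 0.25), and LHS1, an Hsp70-related nucleotide exchange factor of Kar2, had 0.01 (-0.24 to 0.26). PDI1 had -0.16 (-0.41 to 0.09), EUG1 0.00 (-0.28 to 0.29) and DER1 -0.03 (-0.27 to 0.21).

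The lowest unadjusted p of a member was that of FPR2, an ER proline isomerase of the FKBP family. FPR2 averaged -0.11, -0.28, -0.06, -0.49 and -0.04 without inositol in SD, SEtOH, SEtOH+aa, Sgal and Sgal+aa, against 0.14, -0.33, 0.10, -0.10 and 0.35 with it. It was lower without inositol in 4 of 5 pairs, by a fitted -0.23 (95% interval -0.44 to -0.01, adjusted p = 0.66 in limma), which ranked 272 of 5164. SCJ1 at -0.20 and JEM1 at -0.14 were likewise lower in 4 of 5 pairs without passing, and HAC1 was higher in 4 of 5. The genes at the top of that ranking were MET2 (0.66, adjusted p = 0.31), ISF1 (0.61), BRE5 (-0.51), SRO9 (-0.52) and HXK1 (0.53), none past the threshold.

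INO1, a known target of inositol depletion, was not called either. Its culture mean differed by -0.09 to 0.63 between the pairs, without minus with inositol, with a fitted difference of 0.24 (95% interval -0.02 to 0.49, adjusted p = 0.66). In galactose INO1 reached 2.75 and 3.24 at 120 min in Sgal and Sgal+aa, against 1.38 and 1.71 in Sgal+ino and Sgal+aa+ino. In ethanol it was 0.85 and 1.30 in SEtOH and SEtOH+aa, against 1.21 and 1.37 with inositol. INO1 had no value in SD+aa:LIVWHM+ino at 120 min, so its inositol difference was not tested at that time. In SD+aa, the medium that removed inositol alone, INO1 stood at 0.59, 0.27, 0.45, -0.14 and -0.05 at 15, 30, 60, 120 and 240 min, and KAR2 at 0.93, 0.36, 0.03, 0.55 and 0.36. SD+aa has no partner with inositol here.

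**Figure D2:**
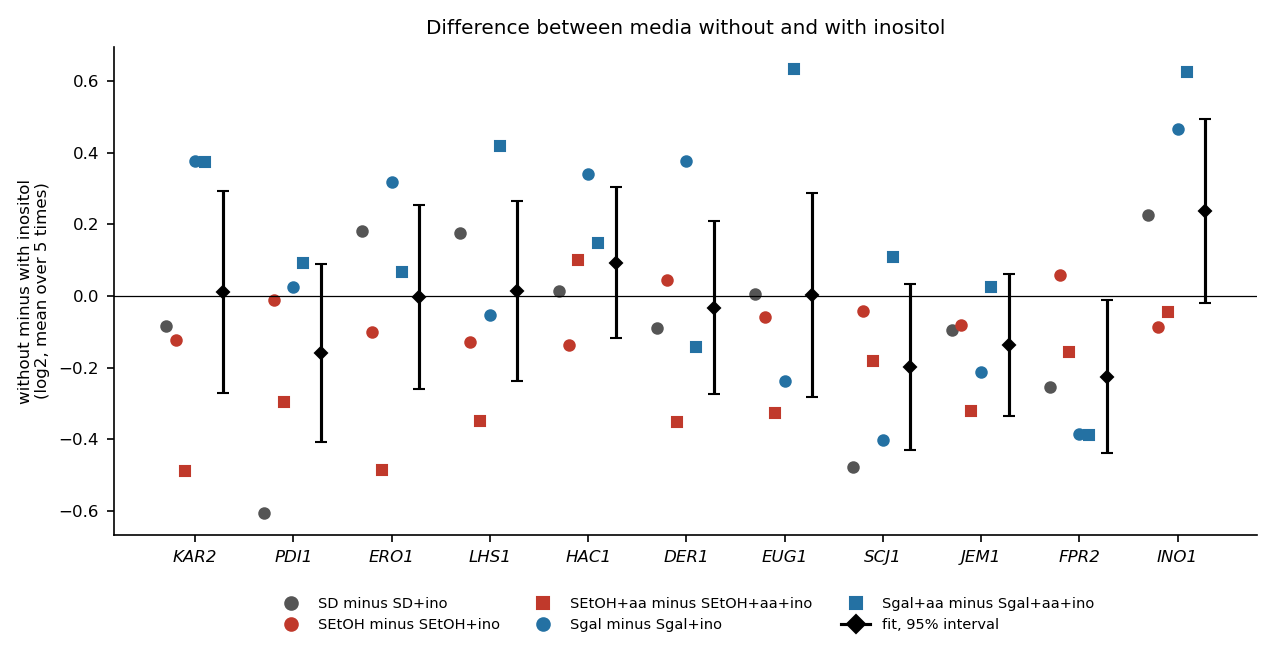
Difference in log2 ratio between media without and with inositol (vertical axis, mean over 5 times) for the 10 genes and INO1. Coloured symbols are the 5 pairs of cultures, and black diamonds the fitted difference with its 95% interval. The intervals of 9 members and of INO1 include 0, and that of FPR2 runs from -0.44 to -0.01.

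Single times gave no call either: 0 members and 0% of the genes tested passed at 15, 30, 60, 120 or 240 min. For the late mean (120 and 240 min) minus the early mean (15 and 30 min) 0 passed too. INO1 was not tested at 120 min or for that difference. At an unadjusted p under 0.05 there were 172 to 385 genes and 0 to 1 members in these tests, and with a trend and robust variance 0 members passed. The size of the KAR2 difference without inositol was largest at 240 min, when KAR2 was lower in all 5 pairs, though by no more than -0.00349 in the Sgal pair. It was -0.47, 1.22, 2.57, 1.85 and 2.12 without inositol in SD, SEtOH, SEtOH+aa, Sgal and Sgal+aa, against -0.30, 1.43, 3.78, 1.85 and 2.44 with it, a fitted -0.38 (95% interval -0.81 to 0.05, adjusted p = 0.74). Much of that difference came from the SEtOH+aa pair, where SEtOH+aa+ino lay above SEtOH+aa by 1.21.

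The pairs of KAR2 and PDI1 differed in sign or size by carbon source, without passing the test. Averaged over time, the KAR2 difference without inositol was -0.31 in the ethanol pairs, 0.38 in the galactose pairs and -0.08 in the dextrose pair, and limma's F test over the carbon sources gave an adjusted p of 0.37. PDI1 was -0.61 in the dextrose pair against a range of -0.30 to 0.09 in the others (adjusted p = 0.38). In this test 0 members and 0% of genes passed in limma (679 genes and 2 members had an unadjusted p under 0.05). The split of the inositol difference by amino acids gave 0 members and 0% of genes too (305 genes and 0 members).

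Carbon source set KAR2 apart from most of the other members. Without amino acids, 4 of 10 members passed in ethanol against dextrose (2 cultures each), all of them higher. They were KAR2, ERO1, DER1 and HAC1. Of all genes 33.4% passed there, higher or lower, and the shares of all genes below likewise count both directions. In galactose against dextrose 3 passed, KAR2, ERO1 and HAC1, all higher, where 46.9% of genes passed. With all amino acids, 5 passed in ethanol (KAR2, ERO1, DER1, PDI1 and HAC1, all higher, where 43.1% of genes passed). In galactose with all amino acids 5 passed, with KAR2, HAC1 and DER1 higher and EUG1 and JEM1 lower, where 52.7% of genes passed. These shares of the 10 members lie near those of all genes. The dextrose side with all amino acids is the single culture SD+aa, whose spread was taken from the other cultures. The median of all genes was -0.12 to -0.03 in these 4 comparisons, and that of the members 0.22 to 0.65. LHS1, SCJ1 and FPR2 passed in none of the 4.

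KAR2 in ethanol without amino acids was 0.61, 1.60, 2.33, 2.34 and 1.22 at 15, 30, 60, 120 and 240 min in SEtOH, and 0.82, 1.55, 2.29, 2.61 and 1.43 in SEtOH+ino. In galactose without amino acids it was 0.67, 1.50, 2.28, 2.45 and 1.85 in Sgal, and 0.58, 0.85, 1.60, 1.98 and 1.85 in Sgal+ino. In dextrose without amino acids it was -1.52, -1.47, -0.26, -1.05 and -0.47 in SD, and -1.59, -1.31, -0.26, -0.89 and -0.30 in SD+ino. Both dextrose cultures lay below all 4 ethanol and galactose cultures at every time. Averaged over time the difference from dextrose was 2.59 in ethanol (95% interval 2.15 to 3.04, adjusted p = 3.2e-06) and 2.48 in galactose (2.03 to 2.92, adjusted p = 3.3e-06), or 6.03-fold and 5.56-fold.

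At 15 min SCJ1 and LHS1 separated by carbon source too in the media without amino acids. With all amino acids SCJ1 was -0.19 in SD+aa, against -0.16 to -0.02 in the 4 ethanol and galactose cultures. LHS1 was -0.16 in SD+aa, against -0.19 to 0.27 in those 4. Without amino acids SCJ1 was 0.02 and -0.09 in SEtOH and SEtOH+ino and -0.05 and 0.05 in Sgal and Sgal+ino, against -1.20 and -0.92 in SD and SD+ino. LHS1 was -0.07 and 0.13 in ethanol and 0.22 and 0.36 in galactose, against -0.47 and -0.72. In both genes the dextrose pair lay below the other 4 cultures. JEM1, the other DnaJ-type partner, was -0.31 and -0.25 in SEtOH and SEtOH+ino and -0.34 and -0.25 in Sgal and Sgal+ino, against -0.50 and -0.36 in SD and SD+ino, and was not called. In ethanol 5 members passed at 15 min, with KAR2 (2.27), ERO1 (1.24), SCJ1 (1.03) and LHS1 (0.62) higher and HAC1 (-0.60) lower, where 66.7% of genes passed. In galactose 4 passed, KAR2 (2.19), SCJ1 (1.06), ERO1 (0.90) and LHS1 (0.89), all higher, where 66.5% of genes passed. HAC1 was -1.38, ERO1 1.99 and SCJ1 0.63 in ethanol and SCJ1 0.68 in galactose with every array set to the same distribution, all still called. The HAC1 call in ethanol was lost without SEtOH (adjusted p = 0.074). That of LHS1 was lost without SEtOH+ino (adjusted p = 0.087) and with every array set to the same distribution (0.57, adjusted p = 0.11). By 240 min SCJ1 was -1.55 and -1.45 in SEtOH and SEtOH+ino, against -0.28 and -0.17 in SD and SD+ino, lower by a fitted -1.27 (adjusted p = 0.0047), a call lost without SEtOH+ino (adjusted p = 0.051) and at -0.31 with every array set to the same distribution (adjusted p = 0.20).

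With all amino acids KAR2 was 1.11, 1.90, 3.00, 3.21 and 2.57 in SEtOH+aa and 1.43, 2.18, 3.16, 3.69 and 3.78 in SEtOH+aa+ino. It was 0.95, 1.89, 2.81, 3.04 and 2.12 in Sgal+aa and 0.61, 1.50, 2.29, 2.11 and 2.44 in Sgal+aa+ino, against the SD+aa values given above. At 15 min these 4 cultures lay on both sides of SD+aa, and from 30 min on all 4 cultures lay above it. Averaged over time the difference was 2.16 in ethanol (95% interval 1.60 to 2.73) and 1.53 in galactose (0.97 to 2.10). These 2 values depended on the scaling of the arrays. From 30 min on the arrays of SD+aa had the narrowest spread of genes, and the part of that spread in the result was not tested. With every array set to the same distribution (quantile normalization) KAR2 differed by 0.81 in ethanol and by 0.07 in galactose (adjusted p = 0.80). At single times the sign turned under that scaling in ethanol at 120 min (2.95 as deposited, -0.06 scaled) and in galactose at 120 min (2.07 and -1.03) and 240 min (1.73 and -0.54). Without amino acids the same scaling left 2.57 and 2.35.

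ERO1 differed between ethanol and galactose. It averaged 0.92, 1.02, 1.46 and 1.94 in SEtOH, SEtOH+ino, SEtOH+aa and SEtOH+aa+ino, against 0.43, 0.11, 0.62 and 0.56 in Sgal, Sgal+ino, Sgal+aa and Sgal+aa+ino, with no overlap. The difference, ethanol minus galactose, was 0.91 (95% interval 0.62 to 1.19, adjusted p = 0.0020), and ERO1 was the 1 member of 10 that passed, where 15.6% of genes passed. KAR2 differed by 0.37 (0.06 to 0.69, adjusted p = 0.097) and HAC1 by -0.12 (-0.35 to 0.12, adjusted p = 0.47). ERO1 peaked at 60 min in 3 of the 4 ethanol cultures, at 1.79, 1.62 and 2.02 in SEtOH, SEtOH+ino and SEtOH+aa, and returned to 0.12, 0.28 and 0.85 at 240 min. In SEtOH+aa+ino its values at 60, 120 and 240 min were 2.11, 2.31 and 2.02. Against dextrose without amino acids ERO1 was higher by 1.43 in ethanol (adjusted p = 0.00016) and by 0.72 in galactose (adjusted p = 0.0080), where SD and SD+ino averaged -0.36 and -0.54.

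DER1 and HAC1 rose between 15 and 240 min in ethanol and galactose. In ethanol DER1 was 0.22, 0.20, 0.21 and 0.14 at 15 min in SEtOH, SEtOH+ino, SEtOH+aa and SEtOH+aa+ino, and 0.80, 0.79, 1.20 and 2.30 in the same order at 240 min. In galactose it was 0.12, 0.06, 0.17 and 0.28 at 15 min in Sgal, Sgal+ino, Sgal+aa and Sgal+aa+ino, and 1.15, 0.65, 1.20 and 1.76 at 240 min. All 8 cultures were higher at the later time, though SEtOH and SEtOH+ino were higher still at 60 min (1.08 and 1.09) and 120 min (1.33 and 1.24). The change from 15 to 240 min averaged 1.08 in ethanol (95% interval 0.66 to 1.50, adjusted p = 0.00072) and 1.03 in galactose (0.62 to 1.45, adjusted p = 0.00090).

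HAC1 began below t = 0 in ethanol. At 15 min it was -0.65, -0.49, -0.29 and -0.65 in SEtOH, SEtOH+ino, SEtOH+aa and SEtOH+aa+ino, and at 240 min 1.04, 1.27, 1.73 and 1.90. In galactose it was 0.18, -0.12, 0.12 and -0.01 at 15 min in Sgal, Sgal+ino, Sgal+aa and Sgal+aa+ino, and 1.33, 0.67, 1.69 and 1.11 at 240 min. In the 5 dextrose media HAC1 stayed between -0.69 and 0.24 over all times. The change averaged 2.00 in ethanol (1.70 to 2.31, adjusted p = 7.1e-06), 1.16 in galactose (0.85 to 1.46, adjusted p = 8.3e-05) and 0.09 in dextrose. It was larger in ethanol than in galactose by 0.85 (0.41 to 1.28, adjusted p = 0.036), where HAC1 was the 1 member that passed and 9.98% of genes did. That call was lost when any of 8 of the 13 cultures was left out in turn (SD, SD+ino, SEtOH, SEtOH+ino, SEtOH+aa+ino, Sgal, Sgal+ino or Sgal+aa+ino), with values from 0.67 to 0.95 and adjusted p up to 0.17. It was also lost with a trend and robust variance (adjusted p = 0.053).

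Over the same span 5 members passed in ethanol, where 70.9% of genes passed, and 5 in galactose, where 74.7% did. In both, HAC1 and DER1 rose, SCJ1 fell and KAR2 rose on the deposited scale, with its sign turned when every array was set to the same distribution. PDI1 rose in ethanol, with its sign turned by that scaling too, and EUG1 fell in galactose. In dextrose 0 members passed, where 34% of genes passed (2 members and 2086 of 4638 genes had an unadjusted p under 0.05). KAR2 changed by 1.26 in ethanol (95% interval 0.96 to 1.56) and by 1.36 in galactose (1.06 to 1.66), but with every array set to the same distribution these became -0.60 and -0.19, and PDI1's 0.50 in ethanol became -0.29. Under that scaling HAC1 rose by 2.09 in ethanol and 0.61 in galactose and DER1 by 0.33 and 0.40, all still called, the falls of SCJ1 were -0.32 and -0.26 and not called, and ERO1, not called as deposited, fell by 1.20 and 0.48. JEM1 (0.58 in ethanol and 0.53 in galactose) and LHS1 (-0.48 in galactose) also gained a call under it, and EUG1 gained one in dextrose (-0.56). The PDI1 call in ethanol was lost without SEtOH, SEtOH+ino, SEtOH+aa+ino, Sgal or Sgal+ino, with values from 0.34 to 0.58 and adjusted p up to 0.25.

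Tested against the change in dextrose, 5 members differed in ethanol, where 68.2% of genes did, and 6 in galactose, where 69.4% did. HAC1 differed by 1.91 in ethanol and 1.06 in galactose, DER1 by 1.34 and 1.29, KAR2 by 0.87 and 0.97, and SCJ1 by -1.22 and -1.17. PDI1 passed in ethanol (0.92), and ERO1 (-0.55) and EUG1 (-1.12) in galactose. With every array set to the same distribution the KAR2 differences were -0.42 and -0.00, and those of SCJ1 (-0.43 and -0.38), of PDI1 in ethanol (0.49) and of HAC1 (0.43) and EUG1 (-0.22) in galactose were no longer called. The PDI1 call was also lost without SD, SEtOH or SEtOH+aa+ino (adjusted p up to 0.090), that of ERO1 without SD, SEtOH, SEtOH+ino, Sgal, Sgal+ino or Sgal+aa (up to 0.095) or with each array centred on its median, and that of EUG1 without SD, SD+ino, SEtOH, SEtOH+ino or Sgal (up to 0.20).

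EUG1 fell in galactose, where its relative PDI1 changed by -0.06 (adjusted p = 0.78). At 240 min EUG1 was -1.38, -0.79, -0.71 and -2.72 in Sgal, Sgal+ino, Sgal+aa and Sgal+aa+ino, all below every one of the 5 dextrose values (-0.52 to 0.06). PDI1 was 0.17, 0.31, 0.93 and 0.10 in the same galactose cultures at that time. From 15 to 240 min EUG1 changed by -1.38 in galactose (95% interval -2.0 to -0.76, adjusted p = 0.0017). That change was -1.90 without Sgal+aa, -0.86 without Sgal+aa+ino and -0.79 with every array set to the same distribution, called in each. In ethanol EUG1 went from -0.09 at 15 min to -0.79 at 240 min in SEtOH, and from 0.15 to -0.89 in SEtOH+ino. With all amino acids in ethanol it went from -0.17 to -0.10 in SEtOH+aa and from -0.13 to 0.72 in SEtOH+aa+ino. The fitted change of EUG1 in ethanol was -0.20 and not called. Against dextrose with all amino acids EUG1 averaged -0.86 in galactose (-1.43 to -0.29, adjusted p = 0.017), with values from -1.33 to -0.54 when a culture was left out, -1.33 without Sgal+aa and -0.54 without Sgal+aa+ino, and -0.49 with every array set to the same distribution (adjusted p = 0.057). EUG1 and FPR2 are neighbouring genes (YDR518W and YDR519W), and FPR2 was -0.98, -0.16, 0.29 and 0.15 in those galactose cultures at 240 min. Across the 65 values r between the neighbours was 0.27.

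**Figure D3:**
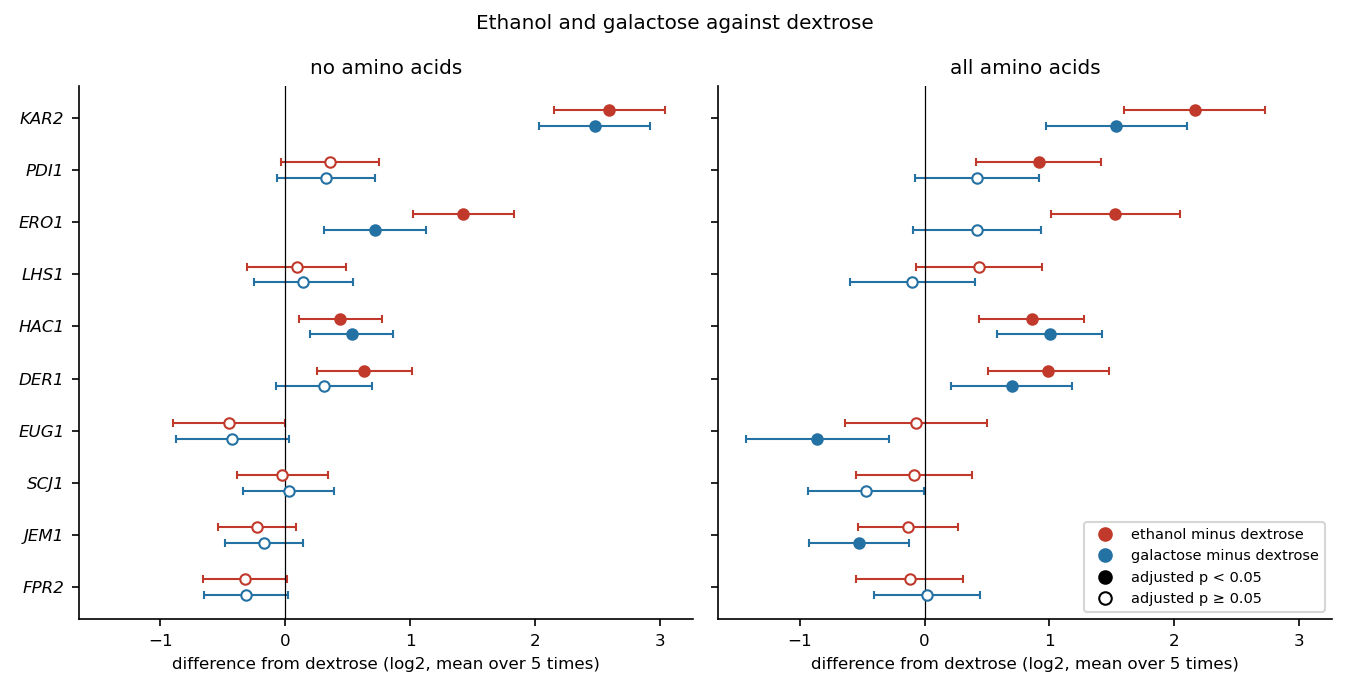
Difference in mean log2 ratio between ethanol (red) or galactose (blue) and dextrose for the 10 genes, without amino acids (left) and with all amino acids (right). Points are fitted differences with 95% intervals, filled where the adjusted p was below 0.05. On the deposited scale KAR2 stands farthest from 0 in all 4 comparisons, at 2.59, 2.48, 2.16 and 1.53. The values with all amino acids became 0.81 in ethanol, below the 1.20 of ERO1, and 0.07 in galactose with every array set to the same distribution.

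Several of the smaller carbon differences rested on few cultures. HAC1 in ethanol without amino acids (0.44, adjusted p = 0.043) was not called when SD, SD+ino, SEtOH, SEtOH+ino, SEtOH+aa or SEtOH+aa+ino was left out (0.30 to 0.58, adjusted p up to 0.39), and DER1 (0.63) when SD, SD+ino, SEtOH or SEtOH+ino was (0.58 to 0.68, adjusted p up to 0.13). With every array set to the same distribution that HAC1 difference was 0.15 (adjusted p = 0.42), and DER1 in galactose with all amino acids was 0.38 in place of 0.70 (adjusted p = 0.084). In galactose without amino acids, HAC1 (0.53) was lost without SD or Sgal and ERO1 (0.72) without SD+ino or Sgal (adjusted p up to 0.12). JEM1 in galactose with all amino acids (-0.53) was lost without SEtOH, SEtOH+ino, SEtOH+aa, SEtOH+aa+ino or Sgal+aa+ino, at -0.44 with each array centred on its median (adjusted p = 0.052) and at -0.33 with additive terms (adjusted p = 0.071).

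Amino acid supply moved KAR2 early in dextrose. At 15 min KAR2 was -1.52 and -1.59 without amino acids in SD and SD+ino, against 0.93 in SD+aa, a gap wider than the whole range of the 8 ethanol and galactose cultures at that time (0.58 to 1.43). The fitted difference, none minus all, was -2.49 (95% interval -2.93 to -2.06, adjusted p = 2.4e-06). ERO1 (-0.60 and -0.78 without, 0.25 with), SCJ1 (-1.20 and -0.92, against -0.19) and JEM1 (-0.50 and -0.36, against 0.12) were lower without amino acids too, by -0.94, -0.89 and -0.60. These 4 of 10 members passed, all lower, where 55.2% of genes passed. SCJ1 was -0.33 and lost its call (adjusted p = 0.39) with every array set to the same distribution. At 30 min KAR2 (-1.69), ERO1 (-0.86) and JEM1 (-0.71) were lower and EUG1 (0.64) higher without amino acids, where 40.6% of genes passed.

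The JEM1 and EUG1 calls at 30 min were lost without SEtOH, SEtOH+ino, SEtOH+aa, SEtOH+aa+ino or SD, and that of JEM1 also without SD+ino. Averaged over time KAR2 alone passed, at -1.35 (-1.92 to -0.79, adjusted p = 0.0021), where 26.8% of genes passed.

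The 2 media with part of the amino acids split KAR2 in the same way at 15 min. KAR2 was 0.96 with leucine, isoleucine, valine, tryptophan, histidine and methionine (SD+aa:LIVWHM+ino), near SD+aa, and -1.63 with the other 14 (SD+aa:ARNCQGKPSDEFTY+ino), near SD and SD+ino. ERO1 was 0.60 and -0.75, SCJ1 -0.21 and -1.40, and LHS1 0.36 and -0.28 in the same 2 media. JEM1 did not follow this split, at -0.63 and -0.47 in the same order, against 0.12 in SD+aa. Against no amino acids, SD+aa:LIVWHM+ino was higher for KAR2 (2.52, 95% interval 2.08 to 2.96, adjusted p = 5.4e-06), ERO1 (1.29), LHS1 (1.00), SCJ1 (0.84) and FPR2 (0.51), 5 of 10 members, where 37.1% of genes passed. The difference between the 2 partial media passed for 4 members, KAR2 (2.59), ERO1 (1.35), SCJ1 (1.19) and LHS1 (0.64), where 35.2% of genes passed. Each partial medium is 1 culture of 1 array a time, with its spread taken from the inositol pairs. The FPR2 call in the first was lost without SEtOH, SEtOH+ino, Sgal or Sgal+ino (adjusted p up to 0.056), and the LHS1 call in the second without any of the 4 ethanol cultures, Sgal or Sgal+ino (up to 0.071) or with each array centred on its median (0.072). With every array set to the same distribution KAR2 alone was still called, at 1.61 against no amino acids, and ERO1 was 0.99 (adjusted p = 0.11), LHS1 0.71, SCJ1 0.53 and FPR2 0.35.

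Over time the split closed. At 30 min KAR2 was -0.17 in SD+aa:LIVWHM+ino and -1.01 in SD+aa:ARNCQGKPSDEFTY+ino, and from 60 min on the 2 media lay between -0.19 and 0.30. Averaged over time, 1 member passed against no amino acids with LIVWHM, KAR2 (1.16, adjusted p = 0.016), where 7.24% of genes passed, and the call was lost without SD (1.12) or SD+ino (1.24). With ARNCQGKPSDEFTY 0 members passed at limma's threshold or at an unadjusted p under 0.05, where 3.64% of genes passed, and the count stayed 0 with a trend and robust variance. At 60 min EUG1 was -0.95 in SD+aa:ARNCQGKPSDEFTY+ino, against 0.41 in SD and 0.49 in SD+ino (-1.40, adjusted p = 0.0066), the 1 member called there, where 14.4% of genes passed. That call was lost without SD+ino (adjusted p = 0.058).

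**Figure D4:**
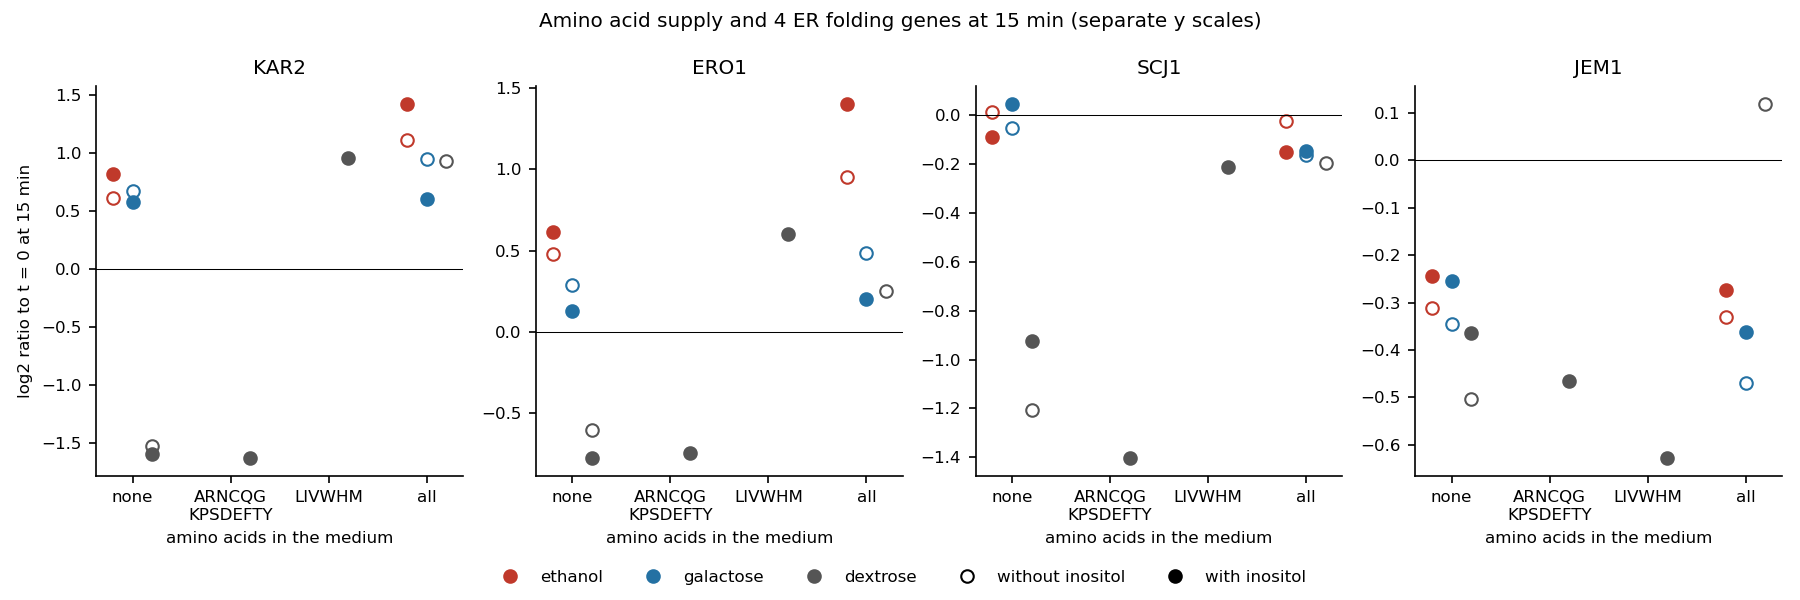
Log2 ratio to t = 0 at 15 min (vertical axis, with its own scale in each panel) of KAR2, ERO1, SCJ1 and JEM1 by the amino acids in the medium (horizontal axis). Each point is 1 culture, coloured by carbon source and open where the medium lacked inositol. In dextrose, KAR2 is -1.52, -1.59 and -1.63 with no amino acids or the set of 14, and 0.96 and 0.93 with the set of 6 or all, while in ethanol and galactose it is between 0.58 and 1.43.

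In ethanol and galactose the amino acid effect was different. At 15 min KAR2 without amino acids was 0.61 and 0.82 in ethanol, against 1.11 and 1.43 with them, and 0.67 and 0.58 in galactose, against 0.95 and 0.61. The effect in dextrose differed from that in ethanol for KAR2 (-1.94), SCJ1 (-0.94), JEM1 (-0.62) and FPR2 (-0.54), 4 members where 48.1% of genes did. It differed from that in galactose for KAR2 (-2.34), SCJ1 (-1.04), ERO1 (-0.80) and JEM1 (-0.71), 4 members where 47.4% of genes did. At 30 min KAR2 alone differed, by -1.22 from ethanol and -1.17 from galactose, where 30.2% and 31.3% of genes did. The KAR2 and SCJ1 differences at 15 min were called with each of 12 cultures left out in turn, and SD+aa, on which they rest, could not be left out. With every array set to the same distribution KAR2 was still called and the others were not, SCJ1 standing at -0.34 from ethanol and -0.50 from galactose (adjusted p = 0.52 and 0.33). That of FPR2 was lost in 9 of 12 such fits, all but those without SD+ino or a partial medium. That of ERO1 was lost without SEtOH, SEtOH+ino, Sgal, Sgal+ino or Sgal+aa+ino, and that of JEM1 against ethanol without SEtOH+ino. At 30 min the KAR2 difference was lost without SD, SEtOH, SEtOH+ino or SEtOH+aa, and the one from galactose also without SEtOH+aa+ino, Sgal or Sgal+aa+ino (-1.27 to -0.91).

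In ethanol the members called for amino acids were called at 120 and 240 min. At 240 min KAR2 was 1.22 and 1.43 in SEtOH and SEtOH+ino, against 2.57 and 3.78 in SEtOH+aa and SEtOH+aa+ino. LHS1 was -1.08 and -0.91, against 0.53 and 1.64, and SCJ1 -1.55 and -1.45, against -0.46 and 0.29. For all 10 members both cultures without amino acids lay below both with them. The share of all genes with that order was not counted, so whether the order sets the members apart is not known. The members' median difference was -1.27, beside -0.03 for all genes. KAR2 was the 1 member that passed (-1.85, 95% interval -2.54 to -1.17, adjusted p = 0.035), where 0.641% of genes passed. An unadjusted p under 0.05 was reached by 8 of the 10 members and by 291 of the 5145 genes tested. At 120 min LHS1 was the 1 member that passed (-1.43, adjusted p = 0.042), where 0.583% of genes passed.

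Both late calls rested on few cultures. KAR2 at 240 min was lost when SD, SD+ino, SEtOH, SEtOH+ino, SEtOH+aa+ino, Sgal or Sgal+ino was left out (-1.96 to -1.33, adjusted p up to 0.48), and LHS1 at 120 min in 9 of 13 such fits (-1.69 to -1.18, adjusted p up to 0.53), all but those without SD+aa, SD+aa:ARNCQGKPSDEFTY+ino, Sgal+aa or Sgal+aa+ino. With every array set to the same distribution KAR2 was -1.15 (adjusted p = 0.078) and LHS1 -0.91 (adjusted p = 0.33). Averaged over time 0 members passed in ethanol in limma's test (1 passed with a trend and robust variance), where 0.678% of genes passed. An unadjusted p under 0.05 was reached there by 6 members and by 401 of 5164 genes. In galactose 0 passed (0 with a trend and robust variance), where 0.116% of genes did. There 1 member and 1005 of 5164 genes had an unadjusted p under 0.05.

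At 240 min SEtOH+aa+ino held the highest value of the 13 cultures for all 10 members, among them PDI1 at 1.84, against 1.18 in SEtOH+aa, LHS1 at 1.64 against 0.53, DER1 at 2.30 against 1.20, JEM1 at 0.92 against 0.10, EUG1 at 0.72 against -0.10 and FPR2 at 0.91 against 0.23. The cytosolic heat-shock gene CPR6 was 2.46 and 2.32 in these 2 cultures at that time. How many of all genes had their highest value at 240 min in SEtOH+aa+ino was not counted. Whether the members are set apart by having theirs there is therefore not known.

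By likeness over the 65 values on the deposited scale, the genes closest to KAR2 were of cytosolic and mitochondrial chaperones and their partners. ERO1, DER1, PDI1 and HAC1 were also in the upper part of the ranking. The closest genes were picked from all genes and the members were a fixed list. The ranks therefore cannot tell whether KAR2 went with those chaperones rather than with the members. Of 3923 genes with complete values, the closest to KAR2 were CPR6, a cyclophilin that works with Hsp90 (Pearson's r 0.97), STI1, an Hsp90 co-chaperone (0.95), HSP82, Hsp90 itself (0.95), HSP60, the mitochondrial chaperonin (0.94), SSE1 (0.93), FES1 (0.93), SSA4 (0.93) and MDJ1 (0.91). The closest member was ERO1, at rank 68 (0.81), followed by DER1 at 137, PDI1 at 234 and HAC1 at 347, and EUG1 was at rank 2527 (-0.31). HAC1 was closest to COX13 (0.89), ESL2, SNA3, QCR6, COX5A, GUT1, CAD1 and MRK1 (0.88). COX13, COX5A and QCR6 encode respiratory chain subunits. DER1 was the member most like HAC1, at rank 93 (0.79). EUG1 was closest to KTR1, a mannosyltransferase (0.85), TMA64, ORM1, HOG1, GFA1, DCW1, SNF4 and SEC27 (0.78), and its closest member was SCJ1, at rank 597 (0.46). The values behind each r share cultures, time points and the t = 0 channel.

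**Figure D5:**
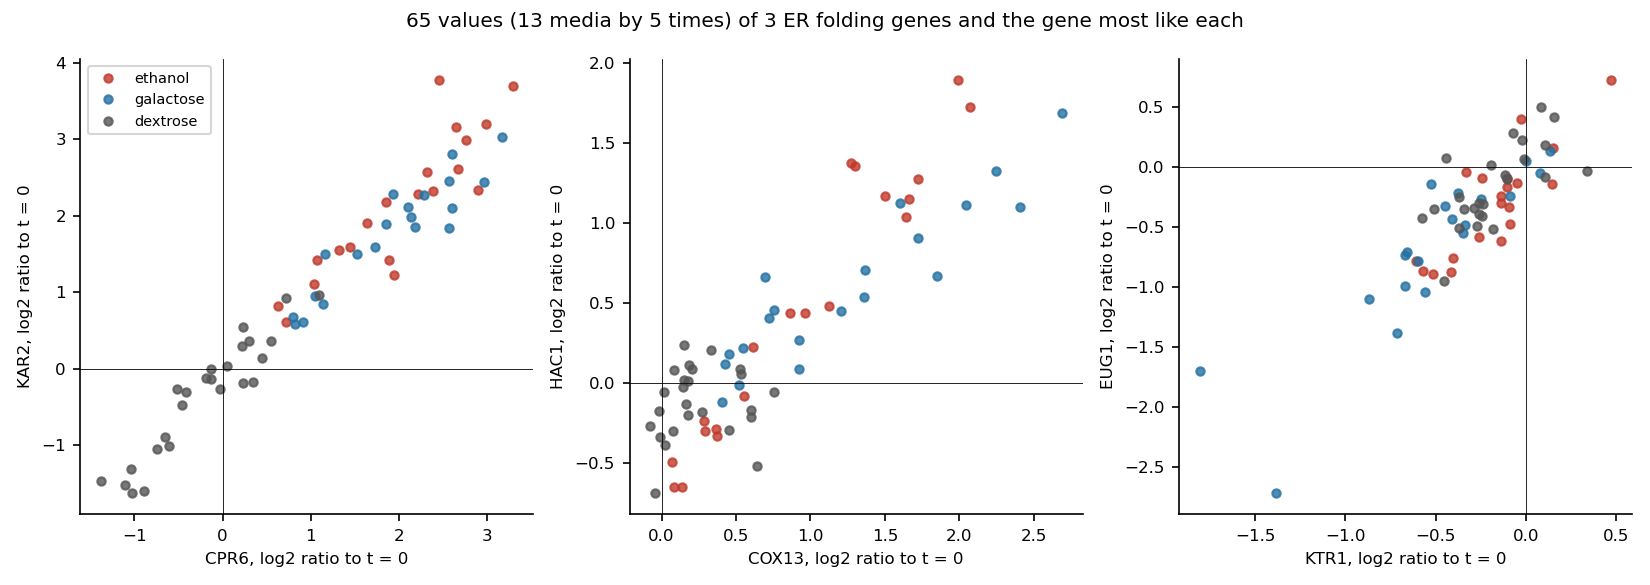
Log2 ratios to t = 0 of KAR2, HAC1 and EUG1 (vertical axes) against the gene most like each (CPR6, COX13 and KTR1, horizontal axes). Each point is 1 of 65 combinations of medium and time, coloured by carbon source. The 3 values of r are 0.97, 0.89 and 0.85, and in the KAR2 panel the dextrose points lie at the lower left.

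Lists of related genes place the members among their pathway. In ethanol against dextrose without amino acids, 16 of 16 genes of the heat-shock list, most of them for cytosolic chaperones, were higher. Their median difference was 3.28, beside -0.07 for all genes, of which 33.4% were called, higher or lower. The largest differences were those of BTN2 (7.25), HSP30 (6.03), SSA4 (5.88) and FES1 (4.54). In galactose 16 of 16 were higher too (median 2.85, where 46.9% of genes were called). In dextrose without amino acids 12 of the 16 were lower than with all of them (median -1.07, where 26.8% of genes were called), and 0 higher. Their median inositol difference was 0.18, with 0 called.

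Other lists of ER genes are given beside the 33.4% of all genes called, higher or lower, in ethanol against dextrose without amino acids. The other folding and oxidation genes had 0 of 9 higher and 1 lower, CNE1, the yeast calnexin (-0.59). Of 17 genes for translocation into the ER and signal peptidase, 4 were lower and 0 higher, among them the signal peptidase genes SPC3 (-2.02) and SPC2 (-0.80) and SBH1 (-0.44). Of 8 oligosaccharyltransferase genes OST1 was lower (-0.44), and of 6 protein O-mannosyltransferases PMT6 (-0.60), PMT2 (-0.54) and PMT5 (-0.40) were. Of 15 ER-associated degradation genes UBC7 was higher (0.42) and MNS1 lower (-0.56). Of 13 COPII coat and cargo receptor genes ERV25 was lower (-0.42). Of the HAC1 splicing enzymes, the ligase TRL1 was lower (-0.48, adjusted p = 0.022) and the sensor IRE1 did not pass (0.15, adjusted p = 0.53). Of 10 inositol-regulated phospholipid genes 4 were higher and 1 lower, with INO4 (0.62), INO1 (0.62), OPI1 (0.56) and PSD1 (-0.60) first among them.

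In galactose against dextrose without amino acids 46.9% of all genes were called, higher or lower. The other folding genes had 3 of 9 lower, MPD1 (-0.85), SIL1 (-0.69) and MPD2 (-0.64), and 0 higher. SEC23 (0.60), SEC31 (0.57), SEC16 (0.51) and ERV29 (0.63) of the COPII list were higher, and 0 were lower. Translocation had 3 of 17 lower, degradation 1 higher and 3 lower of 15, oligosaccharyltransferase 1 of 8 lower and O-mannosyltransferases 2 of 6 lower. TRL1 was lower (-0.42), and 4 of 10 phospholipid genes were higher. From 15 to 240 min in ethanol, 70.9% of all genes were called, higher or lower. Of the genes tested, 13 of 16 for translocation, 7 of 8 oligosaccharyltransferase genes and 4 of 5 O-mannosyltransferases fell, with medians of -0.58, -0.74 and -0.60. Of 7 other folding genes 3 rose (MPD2 0.76, ROT1 0.67 and ERJ5 0.60). In galactose the counts were 14 of 16, 7 of 8 and 5 of 5 lower, where 74.7% of all genes were called, higher or lower. In none of the 9 lists was a gene called for inositol.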

How the data were processed

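Two-colour cDNA arrays compared poly A RNA of shifted cells with that of cells before the shift, per the labels. The authors deposited 1 value per probe and array, read here as a log10 ratio from the values, which end at 2 in either direction (100-fold). The image analysis, normalization, base and direction are not given in the sources used here. Of 6256 probes, 5568 had a gene. Values were multiplied by 3.32 to log2, probes of a gene averaged, then repeat arrays. The arrays had values for 4954 to 6254 probes, and their number limits the precision.

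Each culture's mean over 5 times (at least 3 present), single times and the 240 minus 15 min change were fitted with limma 3.58.1 (R 4.3.3), lmFit and eBayes, with 8 media backgrounds and an inositol term, over all 13 cultures (4 residual degrees of freedom). P-values are two-sided and Benjamini-Hochberg adjusted over all genes tested, and "called", "passed", "rose" and "fell" refer to an adjusted p below 0.05. Shares of all genes given beside counts of members or lists are of genes called in either direction, also where the counts are in 1 direction. Since each medium was 1 culture, the spread is that between the inositol pairs, and p-values measure only that. The scripts were tested on simulated data.

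All 10 members were described, up to 4 genes of each of 9 lists by size of difference, called ones first, INO1, the 5 genes with the lowest adjusted p for inositol and the 8 with the highest Pearson's r to KAR2, HAC1 and EUG1. The members and lists were chosen with earlier results of these data known. The difference between the partial media, the differences of the change between carbon sources and the fit of that change without SEtOH+aa+ino were added after seeing the data. Alternatives were median centring, quantile normalization, complete genes only, a trend and robust variance, limit values as missing, the first array of each repeat, additive terms and leaving out each culture.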

Additional observations from a re-analysis of the deposited data

Results flagged for a closer look

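Among 30 groups of culture means of the members, 2 held a culture far from the other 3, where chance gives about 1 in 20. LHS1 averaged 0.16 in Sgal+aa, against -0.26 to -0.20 in the other galactose cultures, and JEM1 averaged -0.59 in Sgal, against -0.39 to -0.37.

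The effect of amino acids (none minus all) differed between carbon sources in 10 member values. At 15 min the dextrose effect minus the ethanol effect was -1.94 for KAR2, -0.94 for SCJ1, -0.62 for JEM1 and -0.54 for FPR2, and minus the galactose effect it was -2.34 for KAR2, -0.80 for ERO1, -1.04 for SCJ1 and -0.71 for JEM1. At 30 min it was -1.22 and -1.17 for KAR2. All of these rest on SD+aa as the single dextrose culture with all amino acids.

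The change from 15 to 240 min differed between carbon sources in 12 member values. In ethanol minus dextrose it was 0.87 for KAR2, 0.92 for PDI1, 1.91 for HAC1, 1.34 for DER1 and -1.22 for SCJ1. In galactose minus dextrose it was 0.97 for KAR2, -0.55 for ERO1, 1.06 for HAC1, 1.29 for DER1, -1.12 for EUG1 and -1.17 for SCJ1. In ethanol minus galactose it was 0.85 for HAC1. Both KAR2 values turned sign with every array set to the same distribution (-0.42 and -0.00), and the arrays' middle 50% of genes widened over the same span in ethanol and galactose.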

How the results depend on the processing

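Of 17155 member values recomputed under an alternative, 16556 kept their side of the threshold, 606 of which changed sign without being called in either, 294 lost a call, 292 gained one and 13 turned sign with a call, all 13 with quantile normalization, which sets every array to 1 distribution. These were KAR2 in ethanol against dextrose with all amino acids at 120 min (-0.060 in place of 2.95), in galactose at 120 and 240 min (-1.03 and -0.54, in place of 2.07 and 1.73), its amino acid effect in dextrose minus ethanol at 240 min (-1.43 in place of 0.92) and its 240 minus 15 min change in ethanol (-0.60), in galactose (-0.19), in ethanol minus dextrose (-0.42) and in galactose minus dextrose (-0.00198), PDI1's change in ethanol (-0.29), JEM1's change in ethanol minus dextrose (0.56) and galactose minus dextrose (0.52), and SCJ1 in ethanol against dextrose at 60 min with all (0.58) and at 120 min with no amino acids (0.51). The number of members called for inositol stayed 0 under all alternatives, on the mean and at single times. With quantile normalization the count of members was 5 in galactose against dextrose with no and 2 with all amino acids, 3 in ethanol against galactose, 5 for amino acids in dextrose, 2 for their effect in dextrose minus ethanol and 2 minus galactose, 3 for LIVWHM and 1 for the change in dextrose. With a trend and robust variance it was 2 in ethanol against galactose, 2 for amino acids in dextrose, 1 in ethanol, 2 for LIVWHM and 0 for the change in ethanol minus galactose. With median centring it was 1 for the amino acid effect in dextrose minus galactose and 1 for the change in dextrose. With complete genes only it was 3 in galactose against dextrose with all amino acids, 1 for the effect in dextrose minus galactose and 3 for the change in galactose, where DER1 and EUG1 were not tested. With limit values missing it was 1 for that effect, and with additive terms 5 in galactose against dextrose without amino acids. With each culture left out it ran from 2 to 5 in ethanol against dextrose without amino acids, 1 to 4 in galactose, 1 to 4 in ethanol against galactose, 1 to 3, 0 to 2 and 0 to 1 for amino acids in dextrose, ethanol and galactose, 0 to 2 for their effect in dextrose minus galactose and 0 to 1 in ethanol minus galactose, 0 to 2 for LIVWHM, 0 to 1 for the change in dextrose and 0 to 4 in ethanol minus galactose. Over all genes the counts called varied by more than 1.5 times in most comparisons, for example 767 to 2054 (1724 as reported) in ethanol against dextrose without amino acids, 267 to 1453 (807) in ethanol against galactose, 0 to 486 (6) for amino acids in galactose, 45 to 541 (188) for ARNCQGKPSDEFTY and, at 15 min, 887 to 2840 (2588) for amino acids in dextrose. The cause was not tested. By replicate number, no paired analysis was possible because each medium was a single culture and the titles number every culture biological replicate 1. The groups compared share only that number. The inositol test did compare media within the 5 pairs that differ only in inositol. The spread comes from 5 inositol pairs, SD+aa and each partial medium stand alone, no dye was swapped, and the scale and direction of the deposited ratios rest on the reading given above.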
